A study of Mus musculus with 4 samples.

Results

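The 9 genes described here belong to FGF-ERK signalling in mouse pluripotent cells: the ligand Fgf4, the receptors Fgfr1 and Fgfr2, and 6 genes that ERK activity induces, of which Dusp6, Dusp4, Spry2 and Spry4 encode inhibitors of the pathway and Etv4 and Etv5 encode ETS transcription factors. They were chosen by name, from 18193 genes measured, and all 9 were represented, by 23 of the 45101 probe sets on the array. RNA of each culture was read on 1 of 4 Affymetrix mouse arrays. NT-ESC lines 1, 2 and 3, on 1 array each, are embryonic stem cell lines grown out of blastocysts that were cloned by nuclear transfer, with the iPSC clone as nuclear donor. The reference is that parental clone, on 1 array, an induced pluripotent stem cell clone whose founder cells, tail-tip fibroblasts, were reprogrammed by adenoviral vectors. All 4 cultures grew in serum and LIF on irradiated embryonic fibroblasts, which were reduced by preplating before RNA was taken, and the labels name no MEK inhibitor. The labels give no strain or sex, the donor is 1 clone, the lines are called subclones without a statement that they are separate derivations, and no line or clone has a second array.

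FGF4 is secreted by mouse embryonic stem cells themselves and acts on them through FGF receptors, which pass the signal through adaptor proteins, Ras, Raf and MEK to the kinase ERK. In these cells ERK activity opens the way out of naive pluripotency, and blocking it keeps them naive. The pathway restrains itself: DUSP6 and DUSP4 are phosphatases that remove the activating phosphates from ERK, and Sprouty proteins such as SPRY2 and SPRY4 act upstream of it, so the RNA of these genes is widely used as a readout of ERK activity.

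Levels below are log2 intensities with each array's mean set to an assumed 7, because the deposited values give only a probe set's log intensity relative to the array mean. Log2 differences scale with that assumption. A level of 1 probe set is not compared with that of another. Each gene is represented by its brightest probe set, and a gene is called bright when its mean level reached 6.83, the median of all probe sets. All 9 genes were bright, and so were 21 of their 23 probe sets. All 7 pluripotent cell markers were bright on average, with mean levels over the list of 12.43, 12.46 and 12.46 in NT-ESC lines 1, 2 and 3, against 12.41 in the iPSC clone. The 9 fibroblast markers measured, which feeder cells would carry, had mean levels of 8.17, 8.32 and 8.26 in the lines and 8.20 in the clone, and summed levels of 73.5, 74.8 and 74.4 in the lines, against 73.8 in the clone. The collagen genes Col1a1, Col1a2 and Col3a1 were bright on every array, while Lum stood at 5.58 to 5.84. In bulk RNA such as this, fewer cells of a type and less RNA per cell cannot be told apart. NT-ESC line 3 stood apart: its 636 bright chromosome 8 genes had a median log2 difference of 0.27 from the other arrays, against -0.02 for 11062 bright genes elsewhere, so values that rest on line 3 are also given without it.

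For sequence context, RefSeq (build GRCm38.p6) gave windows before the transcription start for 5 of the 9 genes, 6 windows in all. The 250 bases before the start are shown for the ligand Fgf4, for the receptor Fgfr2, whose probe sets all stood lower in the 3 lines, and for the feedback gene Dusp6, whose level varied least. Capitals mark the GC box GGGCGG, the CCAAT box CCAAT and the ETS core GGAA on either strand, none of which overlap here. Fgf4 is on the + strand at chr7:144861136-144861385, Fgfr2 on the - strand at chr7:130266809-130267058 and Dusp6 on the + strand at chr10:99262981-99263230.
Fgf4: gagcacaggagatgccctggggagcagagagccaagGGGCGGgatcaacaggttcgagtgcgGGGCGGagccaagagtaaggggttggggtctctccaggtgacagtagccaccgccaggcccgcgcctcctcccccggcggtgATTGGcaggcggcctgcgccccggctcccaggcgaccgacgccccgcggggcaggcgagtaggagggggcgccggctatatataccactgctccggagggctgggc
Fgfr2: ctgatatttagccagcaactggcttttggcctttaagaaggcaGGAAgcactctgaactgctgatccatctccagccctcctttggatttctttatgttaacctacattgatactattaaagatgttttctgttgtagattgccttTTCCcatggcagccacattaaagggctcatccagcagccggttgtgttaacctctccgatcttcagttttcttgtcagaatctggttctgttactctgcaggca
Dusp6: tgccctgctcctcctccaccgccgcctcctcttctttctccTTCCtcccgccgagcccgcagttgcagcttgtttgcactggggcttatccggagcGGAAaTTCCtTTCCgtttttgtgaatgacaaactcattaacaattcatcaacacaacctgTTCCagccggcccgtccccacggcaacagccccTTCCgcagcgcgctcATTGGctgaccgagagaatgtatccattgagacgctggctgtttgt
The Fgf4 window held 2 GC boxes, 1 CCAAT box and no ETS core, and 71.2% of its bases were G or C. The Fgfr2 window held 2 ETS cores and neither of the other boxes, with 44.0% G or C. The Dusp6 window held 6 ETS cores and 1 CCAAT box, with 56.4% G or C. Of 32851 windows of this length in the table, 93.4% held an ETS core, 32.7% a GC box and 33.8% a CCAAT box. An ETS core is thus found in most windows. A match is a stretch of letters and no evidence of binding.

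None of the 9 genes passed when the 3 NT-ESC lines were tested against the iPSC clone. The smallest adjusted p-value among the 9 genes was 0.856 and the greatest 0.961 (limma, Benjamini-Hochberg). Over all genes the same fit called 0%. At an unadjusted p under 0.05 it gave 1 of the 9 genes, Fgfr2, and 5.53% of all genes. The log2 differences ran from -0.30 for Fgfr2 to 0.37 for Fgfr1, with a median of 0.05, against a median of 0.02 over all bright genes. In size the members' differences had a median of 0.16, against 0.08 over all bright genes. Of the 9 genes 4 stood higher in all 3 lines than in the clone, against 29.9% of bright genes, and 1 stood lower in all 3, against 21.4%. The number of arrays limits the precision of each of these values.

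**Figure D1:**
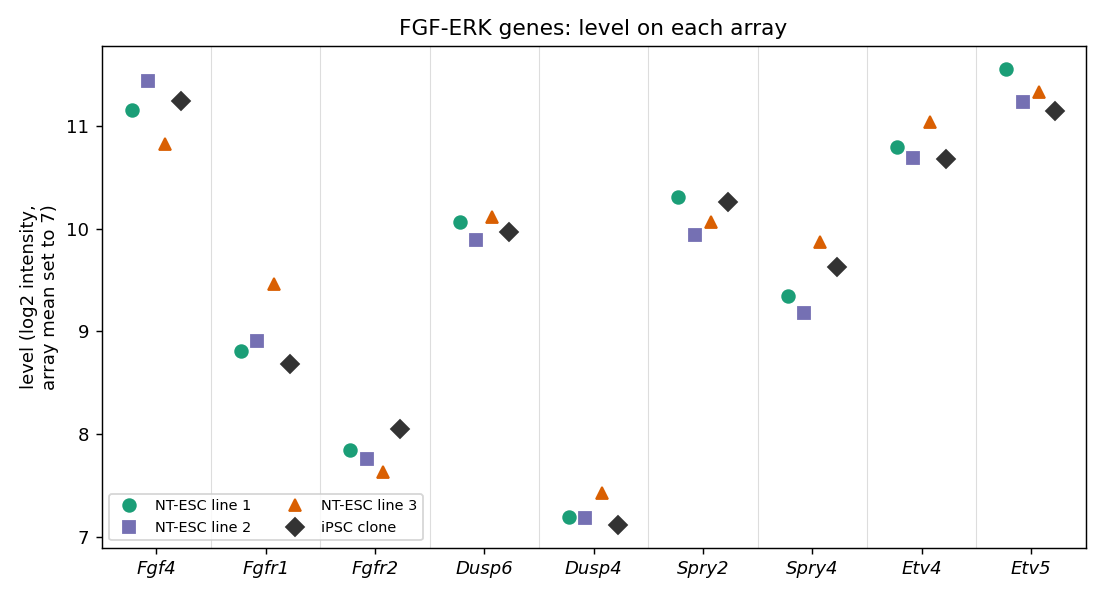
Level of each of the 9 genes on each array (log2 intensity with the array mean set to 7; brightest probe set of the gene), with NT-ESC lines 1, 2 and 3 and then the iPSC clone from left to right and 1 point per array, so no error bar. For Fgfr2 the clone stands above all 3 lines, for Fgfr1 line 3 stands above the other arrays at 9.46, and for Dusp6 the 4 arrays lie within 0.22.

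Fgf4, the ligand, stood well above the median level on every array and was lowest in NT-ESC line 3. Its brightest probe set, 1420085_at, stood at 11.15, 11.43 and 10.83 in NT-ESC lines 1, 2 and 3, against 11.24 in the iPSC clone. The clone lay inside the range of the lines, so the groups overlapped. The mean of the lines was 11.14 ± 0.30 (SD, n = 3), a log2 difference of -0.10 ± 0.22 (SE; limma, Benjamini-Hochberg adjusted p = 0.961), and the difference was 0.06 without line 3 and -0.25 without line 2. A second probe set, 1420086_x_at, gave the same order of arrays, with 10.53 in line 3 and 10.87, 11.15 and 10.95 in line 1, line 2 and the clone. On the third bright probe set, 1450282_at, line 3 was again the lowest at 9.59, but the clone was the highest at 9.91, so the probe sets agree on line 3 and disagree on line 2. The remaining one, 1449729_at, stood at 5.86 to 5.92 on all 4 arrays, among the dim probe sets.

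Fgfr1 encodes the receptor through which FGF4 mainly acts in mouse embryonic stem cells, and its RNA was highest in NT-ESC line 3. On its brightest probe set, 1424050_s_at, the level was 8.81, 8.90 and 9.46 in lines 1, 2 and 3, against 8.68 in the clone. All 3 lines lay above the clone here, but by 0.12 and 0.22 for lines 1 and 2 and by 0.78 for line 3. The difference of the mean of the lines from the clone was 0.37 ± 0.26 (SE; limma, Benjamini-Hochberg adjusted p = 0.876). It was 0.17 without line 3 and 0.15 with the mean of its probe sets. A second probe set, 1425911_a_at, stood at 8.71, 8.73 and 9.54 in the lines and at 8.83 in the clone. There lines 1 and 2 lay just below the clone, by 0.12 and 0.10, and line 3 above it by 0.71. The third, 1436551_at, spanned only 6.81 to 7.01 over the 4 arrays.

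Fgfr2, the other receptor, is the one used most in extraembryonic lineages of the early embryo. It was the 1 member lower in every line than in the clone, with 7.84, 7.76 and 7.63 in NT-ESC lines 1, 2 and 3, against 8.05 in the iPSC clone, on probe set 1433489_s_at. The groups did not overlap. The lines had a mean of 7.74 ± 0.11 (SD, n = 3), a log2 difference of -0.30 ± 0.10 (SE), which did not pass over all genes (limma, Benjamini-Hochberg adjusted p = 0.856). Leaving out each line in turn gave -0.25 to -0.35. Each of the other probe sets of Fgfr2 also had the clone on top: 1420847_a_at stood at 6.93, 6.72 and 6.87 in the lines and 7.24 in the clone. For 1443211_at, a dim probe set, the values were 5.86, 5.99 and 6.05 in the lines and 6.11 in the clone. The 3 probe sets read the same 4 RNA samples and are not independent replicates. Primitive endoderm markers, genes of an extraembryonic lineage, were mostly dim, with 2 of 6 bright. Their summed levels were 42.3, 42.0 and 41.9 in NT-ESC lines 1, 2 and 3, against 41.9 in the iPSC clone. The 2 bright ones ran in opposite orders over the lines. Lama1 stood at 9.58, 9.14 and 8.41 in the lines and 8.94 in the clone, and Dab2 at 7.34, 7.48 and 7.68 in the lines and 7.32 in the clone. The part of these markers in the Fgfr2 values was not tested.

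Dusp6, a cytoplasmic ERK phosphatase and an immediate readout of the pathway, was the steadiest member. It stood at 10.07, 9.89 and 10.11 in NT-ESC lines 1, 2 and 3, against 9.97 in the iPSC clone, which lay within the lines' range. The difference was 0.05 ± 0.11 (SE; limma, Benjamini-Hochberg adjusted p = 0.959), and each line moved it by a large part of its small size: it was 0.028 without line 1, 0.12 without line 2 and 0.0073 without line 3. After quantile normalization it was 0.0068. Dusp4, a nuclear phosphatase of ERK, had a level of 7.20, 7.19 and 7.42 in the lines and 7.12 in the clone. All 3 lines lay above the clone, lines 1 and 2 by 0.08 and 0.07 and line 3 by 0.31, and the mean difference of 0.15 ± 0.12 (SE; limma, Benjamini-Hochberg adjusted p = 0.886) was 0.07 without line 3 and 0.06 less the median of the bright chromosome 8 genes.

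The Sprouty genes were lowest in NT-ESC line 2. Spry2 stood at 10.31, 9.94 and 10.07 in lines 1, 2 and 3, against 10.26 in the clone, on probe set 1436584_at. The difference of the means was -0.15 ± 0.15 (SE; limma, Benjamini-Hochberg adjusted p = 0.906), with line 1 and the clone close together at the top. It was -0.25 without line 1 and -0.07 without line 2. On probe set 1421656_at all 3 lines, at 7.37, 7.33 and 7.38, lay below the clone at 7.48.

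Spry4 varied most among the 6 feedback genes, and its 4 probe sets did not give 1 answer for the lines against the clone. The brightest, 1440867_at, stood at 9.35, 9.18 and 9.87 in lines 1, 2 and 3, against 9.63 in the clone, a difference of -0.17 ± 0.26 (SE; limma, Benjamini-Hochberg adjusted p = 0.946). Without line 3 it was -0.37, without line 2 it was -0.02 and without line 1 it was -0.11. Line 3 was the highest there and on 1445669_at, which read 8.44, 7.96 and 8.77 in the lines and 8.30 in the clone. The clone was the highest on the other pair: 1422020_at read 7.60, 7.31 and 7.70 in the lines and 7.89 in the clone, and 1422021_at read 8.15, 7.95 and 8.09 in the lines and 8.26 in the clone. What the 4 probe sets share is line 2 as the lowest array.

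Etv4 and Etv5 encode closely related ETS factors of the PEA3 group, which are induced by FGF signalling. Etv4 stood at 10.80, 10.68 and 11.04 in NT-ESC lines 1, 2 and 3, against 10.68 in the iPSC clone. Line 2 and the clone were level, 0.01 apart, and line 3 was the highest. The mean difference was 0.16 ± 0.15 (SE; limma, Benjamini-Hochberg adjusted p = 0.901), and 0.06 without line 3. The second Etv4 probe set, 1443381_at, kept this order of the lines, with 7.20, 7.15 and 7.37 in the lines and 7.07 in the clone. For Etv5 line 1 was the highest: 1428142_at read 11.55, 11.23 and 11.33 in lines 1, 2 and 3, against 11.15 in the clone. All 3 lines lay above the clone there, by 0.41, 0.09 and 0.19, and the mean difference was 0.23 ± 0.14 (SE; limma, Benjamini-Hochberg adjusted p = 0.862). It was 0.14 without line 1 and 0.06 with the mean of its probe sets. The other Etv5 probe sets put the clone between the lines. Probe set 1420998_at read 10.54, 9.88 and 10.25 in the lines and 10.26 in the clone, and 1450082_s_at read 10.92, 10.48 and 10.73 in the lines and 10.71 in the clone, so the position of the clone depended on the probe set.

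**Figure D2:**
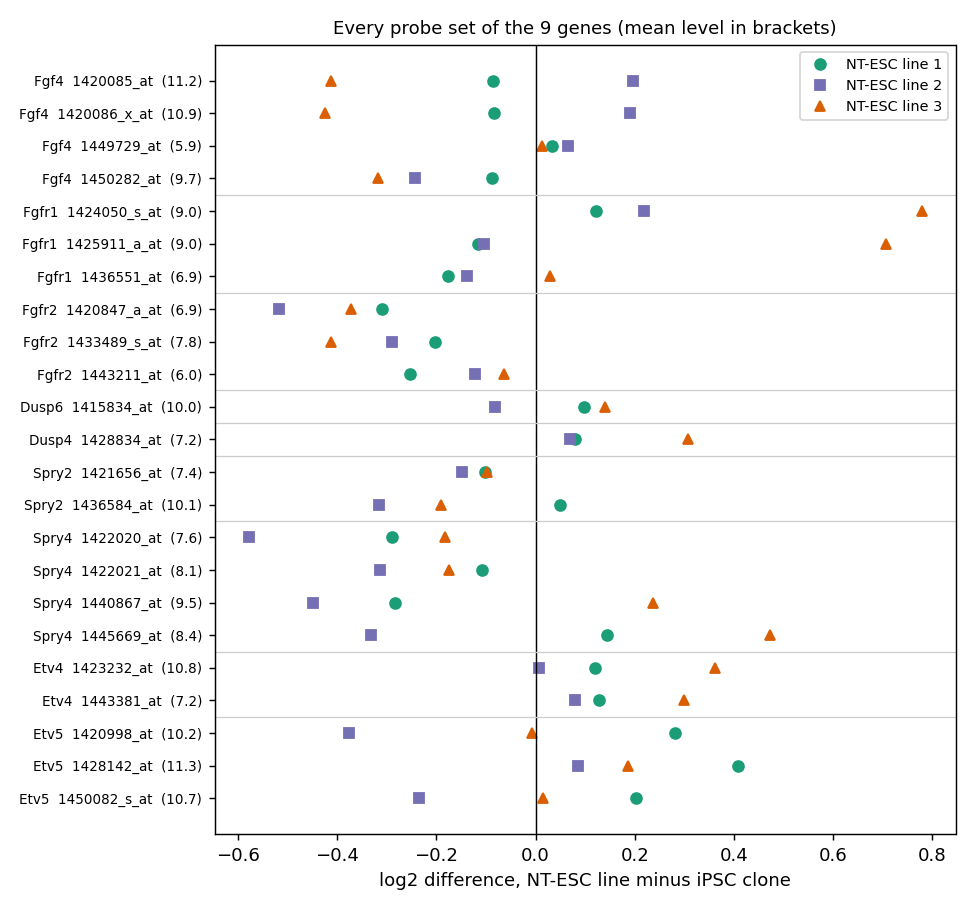
Log2 difference of each NT-ESC line from the iPSC clone (x axis) for all 23 probe sets of the 9 genes (y axis, with the mean level in brackets); 1 point per line, circles for line 1, squares for line 2 and triangles for line 3. All 3 Fgfr2 probe sets lie left of 0 for every line, the 2 bright Fgfr1 probe sets have line 3 at 0.78 and 0.71, and line 2 is the lowest of the lines on all 4 Spry4 probe sets.

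Between single lines and the clone only 1 of 9 members reached a 1.5-fold difference. This was Fgfr1 in NT-ESC line 3, at 1.72-fold, where 1.76% of bright genes differed by as much from the clone. In lines 1 and 2 no member did, where the share of bright genes was 0.443% and 0.128%. A single line against the clone is 1 array against 1 and has no test.

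NT-ESC line 3 was then set against the other 3 arrays, to see which members differed in that line. The same 4 arrays serve all of these contrasts, so they are not independent. No member passed over all genes, although 0.462% of all genes did (limma, Benjamini-Hochberg adjusted p under 0.05). At an unadjusted p under 0.05 the fit gave 5 of the 9 members, Fgf4, Fgfr1, Dusp4, Spry4 and Etv4, against 11.6% of all genes. Line 3 was the highest array for 5 of the 9 genes, where it was the highest for 26.7% of bright genes.

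Fgfr1 came closest to the threshold. It stood at 9.46 in line 3 and at 8.80 ± 0.11 (SD, n = 3) on the other arrays, a log2 difference of 0.67 ± 0.10 (SE; limma, Benjamini-Hochberg adjusted p = 0.0566), and line 3 lay above each of them on all 3 Fgfr1 probe sets. With the mean of its probe sets the difference was 0.53 and passed (limma, Benjamini-Hochberg adjusted p = 0.0313), as it did after quantile normalization, among bright genes alone and with a variance trend (0.0423, 0.0486 and 0.0432). It did not pass with the deposited log2 values as given, where no member was called. With each probe set tested by itself its 3 probe sets had adjusted p-values of 0.111, 0.0633 and 0.824 (limma, Benjamini-Hochberg). With any 1 of the other arrays left out it did not pass either, with adjusted p-values from 0.348 to 0.597 and differences of 0.61 to 0.72. Fgf4 differed by -0.45 ± 0.12 (SE; limma, Benjamini-Hochberg adjusted p = 0.18), standing at 10.83 in line 3 and at 11.28 ± 0.14 (SD, n = 3) on the others. Thus the ligand was lowest and Fgfr1 highest on the same array. The other receptor, Fgfr2, was also lowest there on its brightest probe set, at 7.63, but not on its other probe sets. Etv4 differed by 0.32 ± 0.09 and Spry4 by 0.48 ± 0.16 (SE; limma, Benjamini-Hochberg adjusted p = 0.2 and 0.297). Spry4 on its probe sets 1422020_at and 1422021_at differed by only 0.11 and -0.03. With the mean of a gene's probe sets the line 3 difference was -0.28 for Fgf4, 0.27 for Spry4, -0.09 for Fgfr2 and -0.06 for Spry2. Dusp6 at 0.13, Spry2 at -0.10, Fgfr2 at -0.25 and Etv5 at 0.02 did not pass either. The Spry2 difference ran from -0.03 without line 1 to -0.22 without line 2 and was -0.06 without the clone, and that of Etv5 was 0.14 without line 1 but -0.02 and -0.06 without line 2 and without the clone.

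Fgfr1 and Dusp4 both lie on chromosome 8, whose genes as a whole were higher in line 3. Among the 636 bright genes of that chromosome the log2 difference of line 3 from the other arrays had a median of 0.27, with 5% of genes below -0.04 and 5% above 0.56. Dusp4 differed by 0.26 ± 0.08 (SE; limma, Benjamini-Hochberg adjusted p = 0.275), and 326 of the 636 genes lay above it, so it stood at the middle of its chromosome. Less the chromosome's median its difference was -0.01. Fgfr1 had 13 of the 636 genes above it, and its difference less that median was 0.40. Fgf4, Etv4 and Spry4 lie on chromosomes 7, 11 and 18.

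**Figure D3:**
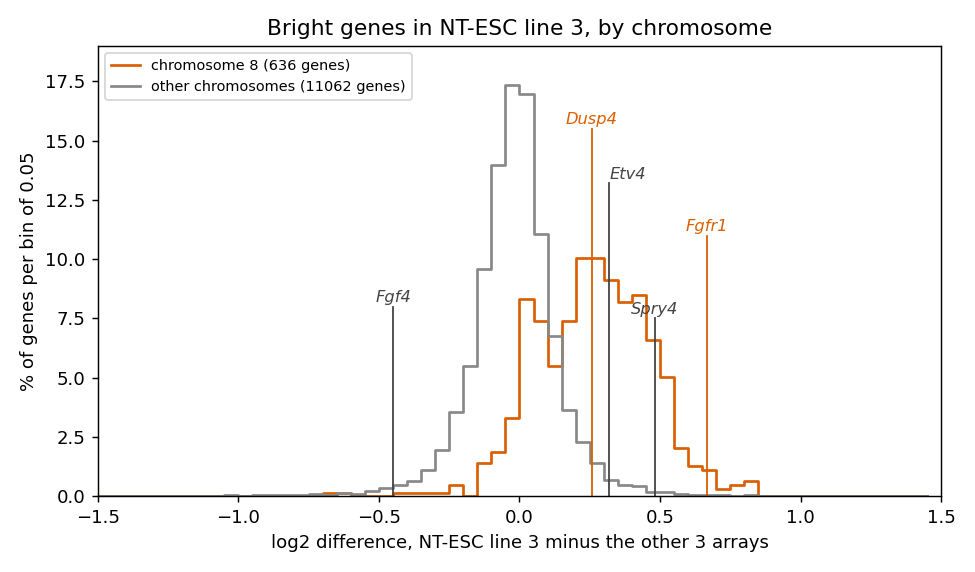
Log2 difference of NT-ESC line 3 from the mean of the other 3 arrays (x axis) for bright genes, as the percentage of genes in each bin of 0.05 (y axis), for 636 genes of chromosome 8 and 11062 of the other chromosomes. Dusp4 at 0.26 sits at the centre of the chromosome 8 genes, Fgfr1 at 0.67 is near their upper end, and Fgf4 (-0.45), Etv4 (0.32) and Spry4 (0.48) sit on the flanks of the genes of other chromosomes; vertical lines mark positions only.

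In NT-ESC line 2 several feedback genes had their lowest values, while Fgf4 had its highest on its 2 brightest probe sets. Line 2 was the lowest array for 9 of the 13 probe sets of the 6 feedback genes, where it was the lowest for 21.4% of all probe sets at or above the median level. Probe sets of 1 gene read the same RNA and are not independent, and all 4 of Spry4 are among these 9. Counted once per gene it was 3 of the 6 feedback genes, Dusp6, Spry2 and Spry4, and so 3 of the 9 members, against 17.3% of bright genes. No member passed for line 2 against the other arrays, nor did any of all genes, 0% (limma, Benjamini-Hochberg). At an unadjusted p under 0.05 this gave 0 of 9 members and 2.33% of all genes. Spry4 differed by -0.43 ± 0.20 (SE), Spry2 by -0.27 ± 0.12 and Dusp6 by -0.16 ± 0.09, while Fgf4 differed by 0.36 ± 0.17; each had an adjusted p-value of 1 (limma, Benjamini-Hochberg). Of the 7 bright fibroblast markers 5 were highest in line 2, as were 2945 of all 11747 bright genes. Col3a1 stood at 9.89 there, against 9.48, 9.57 and 9.44 in line 1, line 3 and the clone. The gap between the 3' and 5' control probe sets of Actb was also widest in line 2, at 0.42, against 0.28, 0.29 and 0.22 in line 1, line 3 and the clone. For Gapdh the gap was near 0 on every array, at 0.03 in line 2, against -0.06, -0.04 and -0.07 in line 1, line 3 and the clone. The part of the fibroblast markers or of the control gaps in the low feedback values was not tested.

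Line 1 had the highest Etv5, and the highest Spry2 on probe set 1436584_at but not on 1421656_at, where the clone was highest. With line 1 set against the other arrays, no member passed and 0% of all genes did (limma, Benjamini-Hochberg). Etv5, at 0.32 ± 0.10 (SE), was the 1 of 9 members with an unadjusted p under 0.05, against 2.77% of all genes, and its adjusted p-value was 0.998.

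None of the pathway genes analysed around these members passed for the lines against their donor clone (limma, Benjamini-Hochberg adjusted p of 0.856 or more, 0 higher and 0 lower in each list). Among the bright ones, naive genes aside, the log2 differences ran from -0.48 for Egr1 to 0.59 for Phlda1. Of 14 other FGF ligand genes only 3 were bright, Fgf17, Fgf7 and Fgf15. Fgf17, an FGF8-family ligand, stood at 7.78, 7.66 and 6.99 in NT-ESC lines 1, 2 and 3, against 7.78 in the iPSC clone. It was the 1 ligand of that list called in line 3 against the other arrays, where it fell by 0.75 on the log2 scale (limma, Benjamini-Hochberg adjusted p = 0.028; with any other array left out no gene passed, with 0 calls). Of the 4 bright FGF ligands Fgf4 and Fgf17 had their lowest value in line 3, where 31.1% of bright genes were lowest. The other two did not: Fgf7 stood at 6.81, 6.89 and 6.87 in the lines and 6.98 in the clone, lowest in line 1, and Fgf15 at 6.93, 6.80 and 6.90 in the lines and 6.85 in the clone, lowest in line 2.

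Among 6 bright genes of other receptors and coreceptors the median log2 difference was 0.07. None stood higher or lower in all 3 lines, against 29.9% and 21.4% of bright genes. Sdc4, a heparan sulfate coreceptor, was the most different at 0.16, with 8.84, 9.003 and 9.32 in the lines and 8.89 in the clone. The FGF receptor gene Fgfr3 and Gpc4, a glypican coreceptor, each differed by 0.10. Of 6 bright adaptor genes, whose median was 0.08, all 3 lines exceeded the clone for 3, against 29.9% of bright genes. Frs3, an adaptor that docks on FGF receptors, differed most, at 0.20 ± 0.09 (SE; limma, Benjamini-Hochberg adjusted p = 0.856), with 8.48, 8.49 and 8.63 in the lines and 8.33 in the clone. Gab1, a docking protein, stood at 11.28, 11.25 and 11.59 in the lines and 11.19 in the clone; Gab1, too, lies on chromosome 8. Ptpn11, the phosphatase SHP2 that receptors need to activate Ras, differed by 0.15 ± 0.08 (SE). In the kinase cascade 7 of 13 genes were analysed here, with a median of -0.03. The MEK1 gene Map2k1 stood at 10.84, 10.98 and 10.75 in the lines and 10.68 in the clone, and the scaffold gene Ksr1 at 7.51, 7.55 and 7.55 in the lines and 7.75 in the clone. Rps6ka3, a kinase downstream of ERK, differed by 0.06.

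Other feedback inhibitors had a median log2 difference of 0.03 over 11 bright genes. In all 3 lines 3 of them were higher and none lower, against 29.9% and 21.4% of bright genes. Dusp1, a phosphatase induced by growth factors and stress, differed most, at 0.26 ± 0.09 (SE; limma, Benjamini-Hochberg adjusted p = 0.856), with 11.28, 11.26 and 11.41 in the lines and 11.06 in the clone. The next in size were Spred1, a Sprouty-related inhibitor, at -0.09 and the phosphatase gene Dusp9 at 0.07. Other genes that ERK induces pulled in both directions, with a median of -0.0047 over 8 genes. Phlda1 stood at 8.59, 8.44 and 9.30 in NT-ESC lines 1, 2 and 3, against 8.19 in the iPSC clone, all lines above the clone. Egr1, an immediate early transcription factor, stood at 10.28, 10.11 and 9.85 in the lines and 10.57 in the clone, all lines below it. Ccnd1, which encodes cyclin D1, also lay below the clone in all 3, at 10.29, 10.32 and 9.85 in the lines and 10.36 in the clone. Line 3 was thus the highest array for Phlda1 and the lowest for Egr1 and Ccnd1.

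The 8 naive genes that ERK activity is known to hold down had a median difference of 0.20, against 0.02 over all bright genes, and 7 of them stood higher in all 3 lines than in the clone, against 29.9% of bright genes. They were led by Tfcp2l1 at 0.65 ± 0.09, Tbx3 at 0.48 ± 0.10 and Esrrb at 0.30 ± 0.08 (SE; limma, Benjamini-Hochberg adjusted p = 0.856 for each). The 4 bright markers of primed epiblast, the later pluripotent state, lay on the other side of 0, with a median of -0.38, and 3 of the 4 stood lower in all 3 lines, against 21.4% of bright genes. The differences were -0.53 for Lef1, a transcription factor of Wnt signalling, -0.41 for the transcription factor gene Sox3, -0.36 for the DNA methyltransferase gene Dnmt3b and -0.30 for the homeobox gene Otx2, and none passed (limma, Benjamini-Hochberg adjusted p of 0.856 or more). Otx2 was the exception among the 4, at 7.97, 8.37 and 8.99 in NT-ESC lines 1, 2 and 3, against 8.74 in the iPSC clone, so line 3 lay above the clone. Fgf5, a ligand of primed epiblast and the fifth marker measured, was dim on all 4 arrays at 5.69 to 5.88. In the same comparison the 6 feedback members had a median of 0.10, with 3 of them higher and 0 lower in all 3 lines, against 29.9% and 21.4% of bright genes, and nothing is read from a count over so few genes. The part of either marker list in the members' values was not tested.

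**Figure D4:**
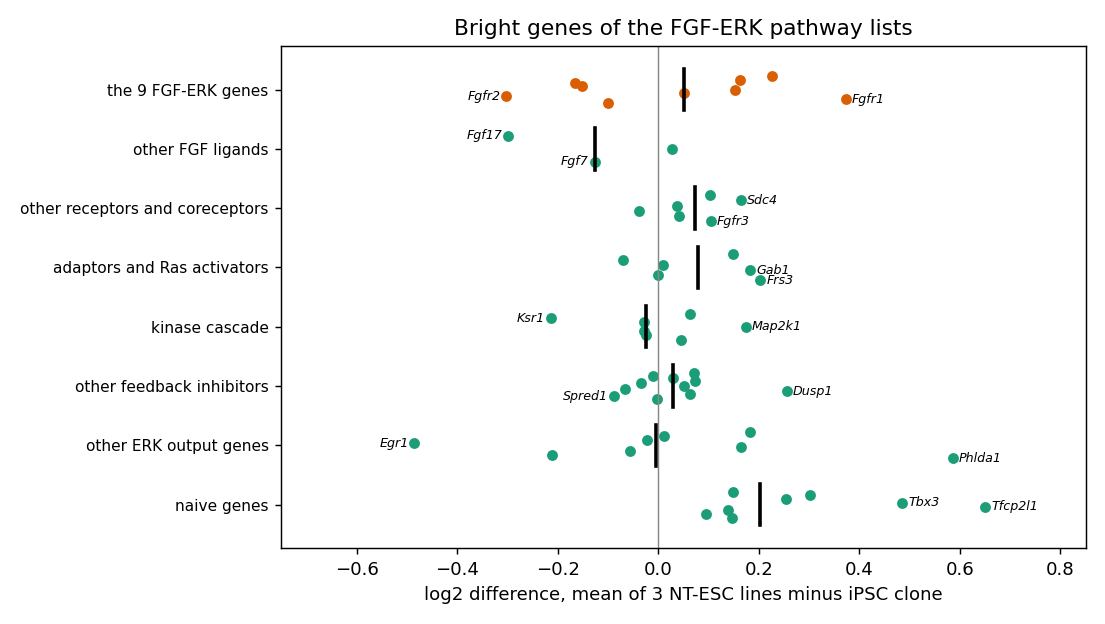
Log2 difference between the mean of the 3 NT-ESC lines and the iPSC clone (x axis) for the bright genes of each pathway list (y axis); 1 point per gene, a black bar for the list's median, and names on the 2 genes furthest from 0. The 9 FGF-ERK genes run from -0.30 (Fgfr2) to 0.37 (Fgfr1) around a median of 0.05, while the naive genes all lie right of 0 with a median of 0.20.

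The genes whose pattern over the 4 arrays was nearest to that of the feedback members were Pbx3, Wdr75, Phpt1, Rprd2 and Rex1bd. The measure was the Euclidean distance, over 4 arrays, between a gene's deviations from its own mean and the median deviations of the 6 feedback members, which were 0.03, -0.12 and 0.15 in NT-ESC lines 1, 2 and 3, against -0.08 in the iPSC clone. Their distances were 0.0154 to 0.0325, against a median of 0.251 over bright genes. These 5 were picked as the nearest of all bright genes, and the distance grows with the size of a gene's differences, so their distances are no yardstick for the members. Of the 6 feedback members, from which the median pattern was made, Dusp6, Etv4 and Dusp4 lay at 0.0673, 0.108 and 0.113, and Etv5, Spry2 and Spry4 at 0.267, 0.334 and 0.405. Etv4, Dusp4, Spry4 and Dusp6 were highest in line 3, and Etv5 and Spry2 in line 1.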

How the data were processed

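The authors deposited 1 processed table of log2 values for 4 arrays. The software that made them is not given in the sources used here. Exponentiated to base 2, the values of any 1 array average 1, the form of log intensity over its array mean; each was multiplied by an assumed mean of 7 to give a level. Probe sets with 1 annotated gene (34945, and 932 with several) gave 18193 genes, each by its brightest probe set; RefSeq (GRCm38.p6) gave symbols and chromosomes by gene ID for 34741 probe sets, and no coordinates were taken for the array's genes. Genes were compared by limma 3.58.1 in R 4.3.3 (lmFit, eBayes, two-sided, Benjamini-Hochberg over all genes, threshold 0.05). The 1 iPSC array was assumed to vary like the 3 NT-ESC arrays (2 residual and 3.57 prior degrees of freedom), and p-values measure only the spread between arrays. For a single line, the spread is that of the other 3 arrays. On simulated data the fit recovered 6.87% of log2 differences of 0.5 for the lines against the clone, and 84.5% of differences of 1. For line 3 against the other arrays it recovered 4.18% and 81.8%. False calls averaged 6.8 and 6 per run. The simulation planted differences of up to 2 and drew variances for both contrasts from the prior of the lines-against-clone fit. In the data themselves bright genes differed by -1.15 to 0.96 between lines and clone, with 0 calls. The simulated shares therefore cannot be taken as the power reached here. With the mean of the 3 lines and each gene's brightest probe set, all members' differences from the clone were smaller than 0.5. For line 3 against the other arrays Fgfr1 differed by more, at 0.67. Not passing does not show that a gene was unchanged. Members, lists and contrasts were chosen with earlier results of these data known. Named are all 9 members, up to 3 bright genes per pathway list by size of difference, and the 5 nearest in pattern. The single primitive endoderm, primed epiblast and fibroblast markers, Fgf5 included, were chosen for mention after their values were seen. Alternatives changed probe set summary, filter, normalization, scale, variance prior, assumed mean and arrays used.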

Additional observations from a re-analysis of the deposited data

How the results depend on the processing

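The comparison of the NT-ESC lines with the iPSC clone called 0 genes by limma under all 9 alternatives run for it, and no member passed in any. The members' log2 differences kept their direction in 82 of 83 alternatives. Many of these could not change it, because a different assumed mean only rescales a difference. The bright-gene filter and the variance trend leave a difference as it is. The exception was Fgf4, at 0.0555 without NT-ESC line 3, and its values with a line left out ran from -0.249 to 0.0555. For NT-ESC line 3 against the other arrays the 84 calls became 168 with the mean of probe sets, 127 after quantile normalization, 15 with the deposited log2 values as given, 153 with a variance trend, 47 with each probe set by itself and 0 with any other array left out, when 1 residual degree of freedom was left. Fgfr1 passed in 4 alternatives, as given above. Less the chromosome's median, the Dusp4 difference was -0.00809. The Etv5 difference was -0.0100 after quantile normalization and ran from -0.0602 to 0.144 with 1 array left out. With an assumed array mean of 6 each log2 difference decreased by 14.3%, and with 7.86 it grew by 12.3%. No paired analysis was possible because the 1 iPSC clone, on 1 array, is the donor of all 3 lines. Probe sets near or below 6.83 give little room to see a change.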
